A study of Homo sapiens with 6 samples.

Results

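Krüppel-like factors (KLFs) are zinc finger transcription factors, and 9 KLF genes were followed here in LX-2 cells, a hepatic stellate cell line, with IGFBP-7 or with only phosphate-buffered saline (PBS). The genes were chosen by symbol from a list of 10, of which KLF2, KLF3, KLF4, KLF5, KLF6, KLF7, KLF9, KLF10 and KLF11 are among the 16569 genes of the deposited table; KLF13 was not analysed here. LX-2 is an immortalised human line of wild type genotype per the labels. It stands in for the stellate cells of the liver, which store retinoids at rest and make scar matrix once activated. All cells were grown in 2% serum and then kept for 18 h without it. The 3 IGFBP-7 libraries come from cells treated with 100 ng/mL of the protein for 24 h, and the 3 PBS libraries from cells given PBS for the same time. IGFBP-7 is a secreted member of the insulin-like growth factor binding protein family. No label says whether libraries of a group are from separate cultures, so the spread behind each p-value is that between libraries and may be technical.

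KLF proteins end in a block of C2H2 zinc fingers that reads CACCC boxes and GC boxes in promoters, and they differ in the part before it. KLF2, KLF4, KLF5, KLF6 and KLF7 mostly activate transcription and can recruit acetyltransferases. KLF3 represses through the CtBP corepressors, and KLF9, KLF10 and KLF11 through the SIN3A corepressor. In the liver, KLF6 is known as a gene induced early when stellate cells are activated, KLF10 is also called TGF-beta-inducible early gene, and KLF2 is known for its induction by blood flow in endothelium.

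Promoter sequence is shown for the 4 genes that changed by at least 1.5-fold and have an entry in the RefSeq promoter table, to set the boxes that KLF proteins read beside the values. The table (build GRCh38.p14) holds windows for 7 of the 9 genes, all but KLF3 and KLF10. Each sequence is the 250 bases before the start, 5′ to 3′ on the gene's strand. Capitals mark the CACCC box and the GC box, whose letters are CCGCCC, on either strand, and these boxes can overlap at their ends. For genes with several starts, the one nearest the principal transcript of GENCODE 29 was taken.
KLF2 (chr19:16324576-16324825, plus strand): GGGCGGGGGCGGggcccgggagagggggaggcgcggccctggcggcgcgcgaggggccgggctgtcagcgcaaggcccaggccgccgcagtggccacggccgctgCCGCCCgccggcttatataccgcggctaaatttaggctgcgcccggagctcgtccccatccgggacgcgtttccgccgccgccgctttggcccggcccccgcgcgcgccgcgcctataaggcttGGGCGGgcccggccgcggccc
KLF5 (chr13:73058755-73059004, plus strand): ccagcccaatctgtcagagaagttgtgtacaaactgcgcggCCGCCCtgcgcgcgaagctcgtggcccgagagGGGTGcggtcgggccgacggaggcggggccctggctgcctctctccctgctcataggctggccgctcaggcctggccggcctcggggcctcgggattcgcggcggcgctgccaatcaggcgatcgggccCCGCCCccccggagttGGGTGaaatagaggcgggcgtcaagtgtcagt
KLF6 (chr10:3785210-3785459, minus strand): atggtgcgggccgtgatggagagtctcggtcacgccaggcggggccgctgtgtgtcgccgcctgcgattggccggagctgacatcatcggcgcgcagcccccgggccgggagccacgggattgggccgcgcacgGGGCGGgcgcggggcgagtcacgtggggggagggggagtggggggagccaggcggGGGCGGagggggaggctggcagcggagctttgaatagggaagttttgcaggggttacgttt
KLF7 (chr2:207165949-207166198, minus strand): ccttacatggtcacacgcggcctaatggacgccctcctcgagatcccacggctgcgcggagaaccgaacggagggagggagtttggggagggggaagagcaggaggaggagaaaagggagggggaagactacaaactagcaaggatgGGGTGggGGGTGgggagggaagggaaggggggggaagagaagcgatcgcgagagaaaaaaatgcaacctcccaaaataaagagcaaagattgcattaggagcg
The upstream stretches of KLF2 and KLF6 hold GC boxes and no CACCC box, with 4 and 2 matches. That of KLF5 holds 2 of each kind. The stretch of KLF7, whose transcript rose, holds 2 CACCC boxes and no GC box, although another of the gene's 4 starts has 4 GC boxes. Both boxes are common: of 34943 promoter windows of 300 bases, 59.8% hold a CACCC box and 44.9% a GC box. The KLF2 window also holds a core of the kind that MEF2 factors bind, the letters CTA and then TAG with 4 bases between them that are each A or T, which 0.575% of all windows hold. It is shown in capitals with 10 bases on either side.
KLF2 (chr19:16324696-16324725, plus strand): tataccgcggCTAAATTTAGgctgcgcccg
The KLF11 window nearest the principal transcript holds 2 GC boxes and neither a CACCC box nor the cyclic AMP response element TGACGTCA. The second of the 2 KLF11 windows, at another start, holds 7 GC boxes, a CACCC box and that element (1.84% of all windows). The KLF4 window has 4 GC boxes and the KLF9 window neither box. None of the 7 genes' windows holds the AP-1 site TGACTCA or the SMAD palindrome GTCTAGAC, which 4.96% and 0.203% of all windows hold. These matches describe letters and say nothing of binding.

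Each level is a normalized count from the deposited table, with groups summarised by their mean ± SD (n = 3 in each). Log2 changes are IGFBP-7 minus PBS on the log2(normalized count + 1) scale, ± the standard error (SE) of limma, and a call means a limma adjusted p under 0.05 over the 11872 genes whose mean reached 10 normalized counts. The libraries held 40599380 to 55479940 recovered counts. Libraries of a group correlated at 0.987 to 0.989 over the tested genes. Of the tested genes 60.6% were called, 31.3% higher and 29.2% lower with IGFBP-7. Scaling each library to its total instead gave 2435 genes higher and 4176 lower, against 3721 and 3471, and moved the median over all tested genes by -0.14 on the log2 scale. The direction and call of each of the 9 KLF genes was the same under that scaling and under quantile normalization. Stellate markers were present: 10 of the 11 analysed here were tested, among them COL1A1 and PDGFRB at 49614 and 3055 normalized counts in PBS, and DES, at 0 in PBS, was not. Of the 10, 9 rose and 1 fell, RELN, from 529 to 71.8 normalized counts. The list summed to between 118825 and 122502 normalized counts in PBS libraries and between 326698 and 361578 in treated ones. COL1A1 was the largest part of these sums, with a mean of 49614 in PBS and 198928 with IGFBP-7. In bulk RNA, fewer cells of a type and less RNA per cell cannot be told apart.

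All 9 KLF genes passed the filter and all 9 were called, 7 lower and 2 higher with IGFBP-7, where 60.6% of all tested genes were called. KLF2, KLF5 and KLF6 fell and KLF7 and KLF10 rose by at least 1.5-fold, which 22.8% of all tested genes did in either direction, 13.1% lower and 9.69% higher. The median log2 change of the 9 was -0.46, against 0.02 for all tested genes; scaled to library totals, the median of the 9 was -0.60. The 3 libraries of a group did not overlap those of the other in 8 of the 9 genes, the exception being KLF3. Among all tested genes 63.5% did not overlap, 30.6% being lower and 32.9% higher with IGFBP-7. The exact permutation test for a single gene cannot go below p = 0.1 with 3 libraries against 3, the value these 8 genes reached.

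**Figure D1:**
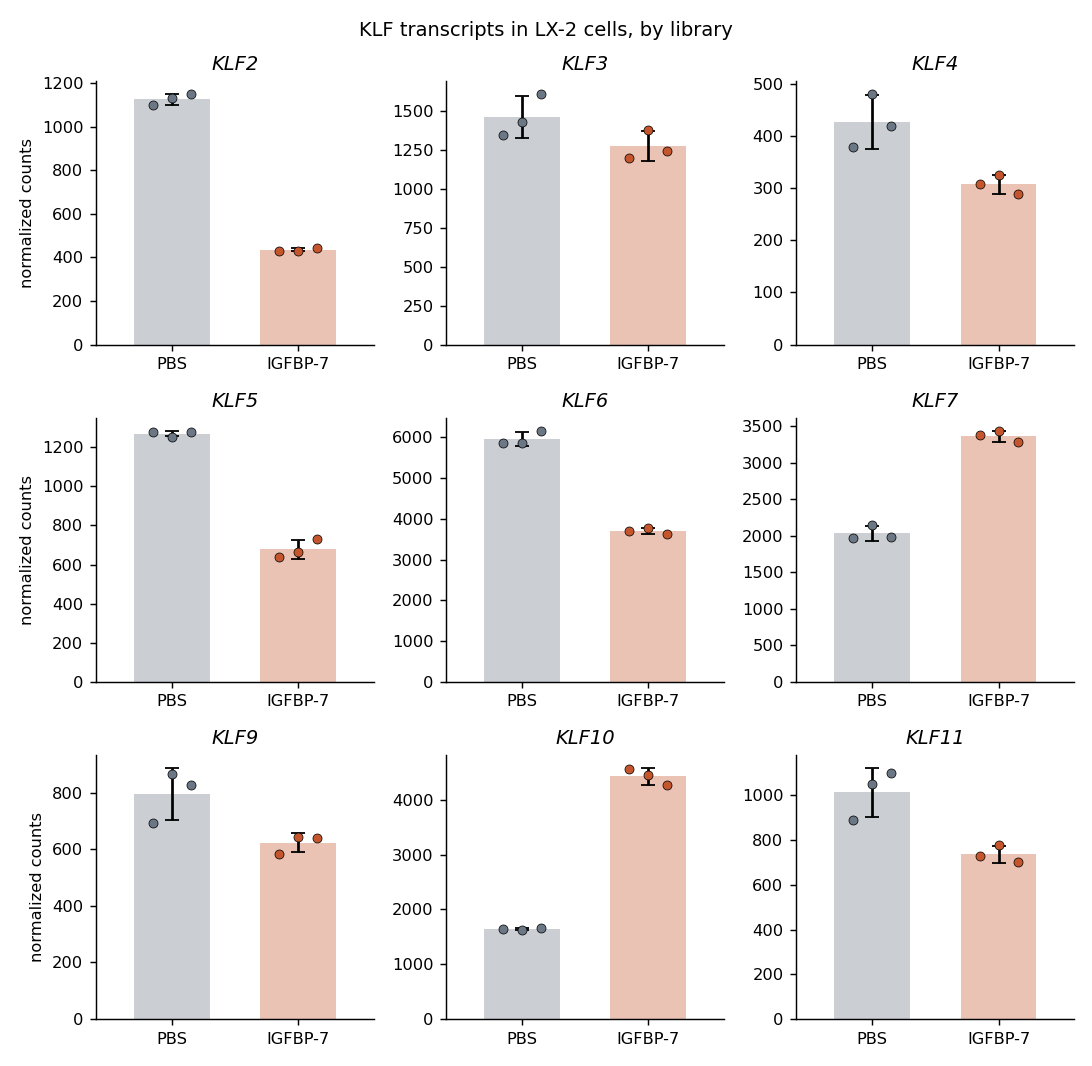
Normalized counts of the 9 KLF genes in PBS and IGFBP-7 libraries; points are libraries, bars are means of 3 libraries with SD, and each panel has its own axis from 0. KLF10 and KLF7 lie higher in the 3 IGFBP-7 libraries, KLF3 overlaps between groups, and the other 6 genes lie lower.

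Among the activating KLFs, KLF2 fell most. KLF2, which in endothelium restrains inflammation and clotting, was at 1099, 1133 and 1148 normalized counts in the PBS libraries and at 430.4, 432 and 442 in the IGFBP-7 libraries. The groups lay far apart, with a gap of 657 normalized counts between the nearest libraries and a coefficient of variation of 2.25% in PBS and 1.48% with IGFBP-7. The mean went from 1127 ± 25.4 to 435 ± 6.45, and the log2 change was -1.37 ± 0.09 (limma adjusted p = 1.11e-18), or 2.59-fold lower. Of all tested genes, 7.28% had a larger change in either direction.

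KLF4, the closest partner of KLF2 in endothelium and one of the factors used to reprogram cells to pluripotency, was the lowest of the 9 genes per length. Its PBS libraries stood at 379, 481 and 419 normalized counts and its IGFBP-7 libraries at 308, 325 and 289. All 3 treated libraries were below the lowest PBS library, by 53.8 normalized counts at the nearest. The fall, -0.47 ± 0.12 on the log2 scale (limma adjusted p = 9.03e-04), was 1.38-fold, and the PBS libraries varied by 12.1% of their mean. Within each library the ratio of KLF2 to KLF4 per kilobase of exon was 5.26, 4.27 and 4.97 in PBS and 2.54, 2.41 and 2.77 with IGFBP-7, lower in each treated library than in any PBS library.

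KLF5, a factor of proliferating smooth muscle and epithelial cells, was at 1279, 1254 and 1279 normalized counts in PBS. With IGFBP-7 it was at 637, 663 and 733. The PBS libraries were nearly level and the treated ones, all lower, spread more, with coefficients of variation of 1.12% and 7.30%. The log2 change was -0.91 ± 0.08 (limma adjusted p = 1.53e-13), or 1.88-fold lower.

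KLF6 and KLF7, close relatives within the family, moved in opposite directions. KLF6, the stellate cell activation gene named above, was at 5865, 5857 and 6161 normalized counts in PBS and 3695, 3780.4 and 3637 with IGFBP-7. It fell 1.61-fold from 5961 ± 173 to 3704 ± 72.1, which is -0.69 ± 0.05 on the log2 scale (limma adjusted p = 3.12e-16). The treated libraries lay close together, 2076 normalized counts below the PBS libraries at the nearest. KLF7, known for its part in the growth of neurons, was at 1965, 2152 and 1979 in PBS and at 3378, 3426 and 3275 with IGFBP-7. Its rise, from 2032 ± 104 to 3359 ± 76.7, was 0.73 ± 0.06 on the log2 scale (limma adjusted p = 8.38e-15), or 1.65-fold, with no overlap between groups. Per kilobase of exon, KLF6 exceeded KLF7 by 4.50, 4.11 and 4.70 times in the PBS libraries and by 1.65, 1.66 and 1.68 times in the IGFBP-7 libraries. KLF7-IT1, a noncoding gene inside KLF7 on the same strand, was at 9.61 ± 3.32 and 10.4 ± 7.42 normalized counts and just missed the filter.

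**Figure D2:**
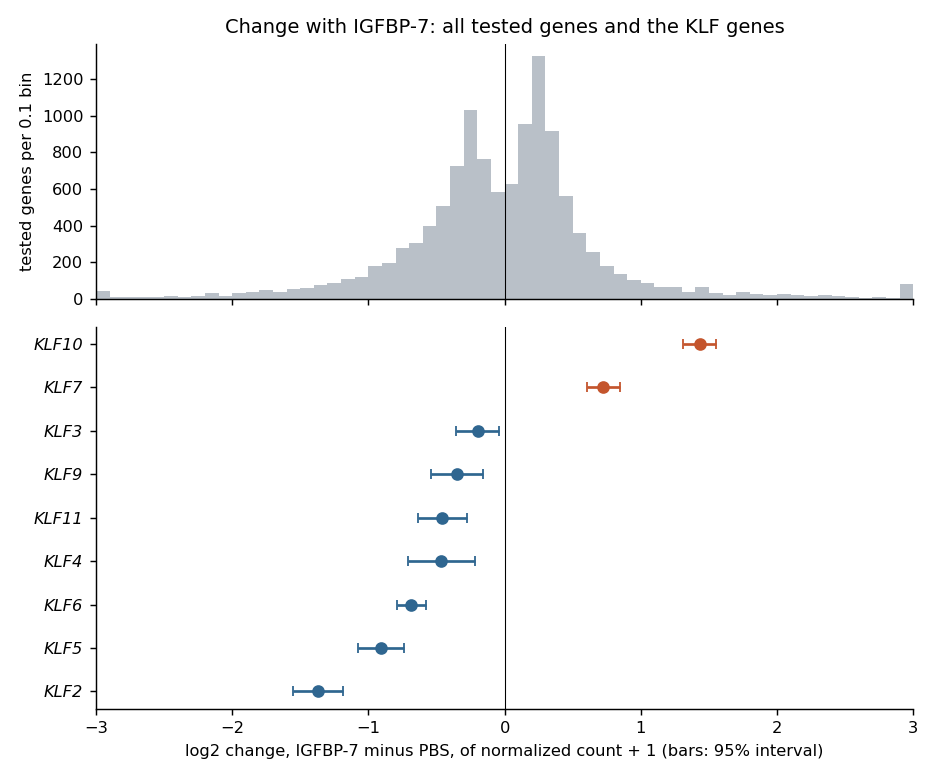
Upper panel: number of tested genes per bin of log2 change, with changes beyond 3 in the outermost bins. Lower panel: log2 change of each KLF gene with its 95% interval from limma; KLF10 (1.43) and KLF7 (0.73) lie right of 0, and the intervals of the other 7, from KLF3 (-0.20) to KLF2 (-1.37), lie left of it.

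Among the repressing KLFs, KLF10 had the largest rise of the 9 genes and its paralog KLF11 fell. KLF10, which restrains proliferation downstream of TGF-beta, was at 1649.7, 1617 and 1659.8 normalized counts in PBS and at 4577, 4456 and 4268 with IGFBP-7. The PBS libraries were nearly level and the lowest treated library lay 2609 normalized counts above the highest of them. The mean rose 2.70-fold, from 1642 ± 22.1 to 4434 ± 155, and the log2 change was 1.43 ± 0.06 (limma adjusted p = 1.03e-26). A larger change in either direction was found in 6.70% of the tested genes.

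KLF11, also induced by TGF-beta in other cells, was at 892, 1052 and 1100.1 normalized counts in PBS and 731, 777 and 702 with IGFBP-7. The treated libraries were all lower, by 114 normalized counts at the nearest. The log2 change was -0.46 ± 0.09 (limma adjusted p = 1.66e-05), or 1.37-fold lower. The ratio of KLF10 to KLF11 per kilobase was 2.12, 1.76 and 1.73 in PBS and 7.18, 6.57 and 6.97 with IGFBP-7.

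KLF9, which glucocorticoid and thyroid hormone induce in many tissues, was at 692, 867 and 829 normalized counts in PBS. Its IGFBP-7 libraries stood at 585, 644 and 641. The groups did not overlap, but the lowest PBS library was only 47.5 normalized counts above the highest treated one. The fall was -0.35 ± 0.10 on the log2 scale (limma adjusted p = 0.00158), or 1.27-fold, and 48.1% of the tested genes changed by more.

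KLF3, which silences genes of fat and blood cell formation, moved least. Its PBS libraries were at 1343, 1426 and 1609.6 normalized counts and its IGFBP-7 libraries at 1194, 1379 and 1239.9, so the highest treated library lay above the lowest control. The log2 change was -0.20 ± 0.08 (limma adjusted p = 0.0248). The call was lost without PBS replicate 3 (log2 change -0.13, adjusted p = 0.219), without IGFBP-7 replicate 1 (-0.15, 0.13) and without IGFBP-7 replicate 3 (-0.18, 0.0654). KLF3-AS1, which overlaps KLF3 on the opposite strand, was at 155 ± 38.5 and 119 ± 21.0 normalized counts and did not pass. Whether reads were counted by strand is not stated in those sources that were used, so the reads of KLF3 and KLF3-AS1 cannot be told apart.

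The order of the KLF genes by level was compared per kilobase of exon, using GENCODE 29 exon lengths, which count exons that these cells may not use. In PBS, KLF6 stood first at 971 ± 28.2 normalized counts per kilobase, followed by KLF2 at 558 ± 12.6, KLF10 at 410 ± 5.53 and KLF5 at 326 ± 3.66. KLF3, KLF11 and KLF7 followed at 232 ± 21.7, 221 ± 23.8 and 219 ± 11.2 and did not differ beyond their spread, and KLF9 and KLF4 were lowest at 154 ± 17.8 and 117 ± 14.1. With IGFBP-7, KLF10 stood first at 1108 ± 38.8, ahead of KLF6 at 603 ± 11.7 and KLF7 at 363 ± 8.28. KLF2 at 215 ± 3.20 and KLF3 at 202 ± 15.3 then overlapped, as did KLF5 at 174 ± 12.7 and KLF11 at 161 ± 8.33. KLF9 and KLF4 were again lowest, at 120 ± 6.46 and 84.0 ± 4.90.

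KLF10 took 12.8% ± 0.442 of the summed per-kilobase level of the 9 genes in PBS and 36.6% ± 0.998 with IGFBP-7. The share of KLF6 went from 30.3% ± 0.661 to 19.9% ± 0.0584 and that of KLF2 from 17.4% ± 0.166 to 7.11% ± 0.229. The ratio of KLF6 to KLF10 per kilobase was accordingly 2.37 ± 0.0511 in PBS and 0.545 ± 0.0161 with IGFBP-7. The summed level itself ran from 3098 to 3299 normalized counts per kilobase over the PBS libraries and from 2972 to 3085 over the IGFBP-7 libraries. The groups did not overlap in any of the 4 ratios computed, and the exact two-sided permutation test gave p = 0.1, the smallest it can give, for each.

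**Figure D3:**
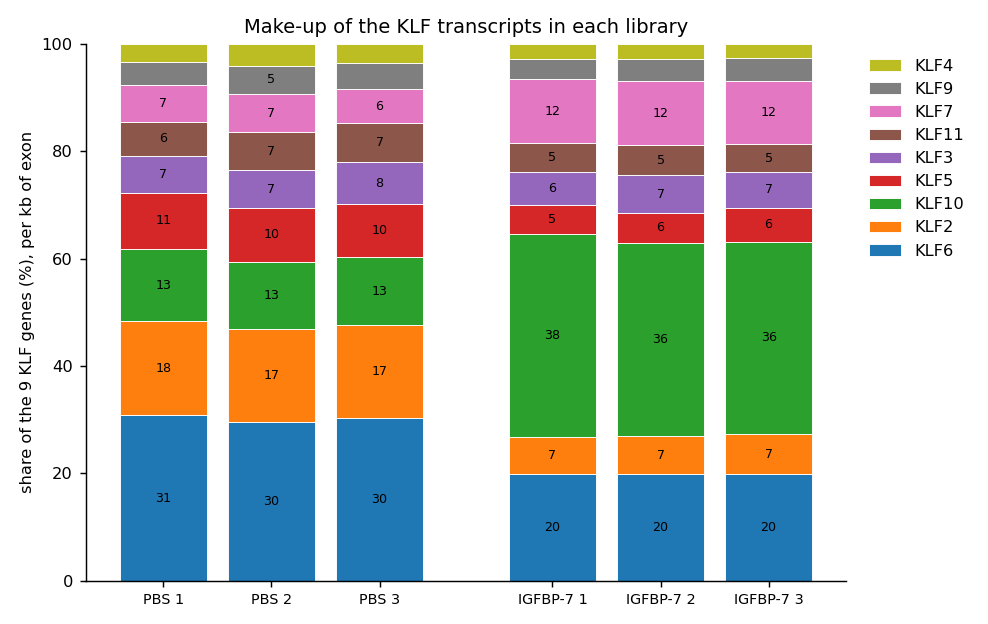
Share of each KLF gene in the summed normalized counts per kilobase of exon of the 9 genes, for each library, in percent. The KLF10 segment widens from 12.8% on average in PBS to 36.6% with IGFBP-7, and those of KLF6, KLF2 and KLF5 narrow.

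Outside these 9 genes, KLF15 fell to a few normalized counts. Of the other 8 KLF genes looked for, 7 are analysed here and 5 passed the filter, of which 1 was called lower, 1 higher and 3 neither, with a median of 0.18 on the log2 scale. The shares over all tested genes were 31.3% higher and 29.2% lower. KLF15, a metabolic factor of liver and muscle, was at 33.0, 45.2 and 40.6 normalized counts in PBS and at 2.04, 6.77 and 4.13 with IGFBP-7. A count of 0 allows a level of 5.08 to 6.41 normalized counts, so IGFBP-7 libraries 1 and 3 lay under that level and library 2 just above its own. The fitted log2 change of -3.02 ± 0.56 (limma adjusted p = 6.59e-06) therefore depends on the pseudocount and is no exact size. KLF16, a close relative of KLF9, had a log2 change of 0.18 ± 0.08 (limma adjusted p = 0.044), which did not pass with scaling to the library total (adjusted p = 0.699) or quantile normalization (0.103). KLF12, a CtBP-binding relative of KLF3, was at 1414 ± 151 and 1348 ± 138, and its 95% interval ran from -0.23 to 0.09, but it passed as lower when libraries were scaled to their totals (log2 change -0.21, limma adjusted p = 0.0209). Under that scaling 0 of the 5 were higher and 2 lower. KLF8 and KLF14 had means of 12.2 normalized counts or less and did not pass, and KLF1 and KLF17, with means of 2.61 or less, were not tested. Among the related SP genes 4 of the 5 analysed here were tested, with SP2, SP5 and SP9 lower and SP4 higher and a median log2 change of -0.40. All 4 were called, where 60.6% of all tested genes were, but the libraries of the groups overlapped in SP2 and SP9. SP5, a target of Wnt signalling, fell from 26.8 to 10.2 normalized counts (log2 change -1.31 ± 0.49). Its treated libraries, at 12.3, 10.2 and 8.27, were not far above the level that a count of 0 allows. SP4 did not pass when libraries were scaled to their totals, and SP9 did not pass with quantile normalization (adjusted p = 0.086).

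The partners and regulators of the KLF proteins are listed from textbook knowledge, and only those analysed here are counted. Among 7 tested corepressor and coactivator genes 3 rose and 4 fell, and the median change was -0.14 on the log2 scale, where 60.6% of all tested genes were called. HDAC2, a deacetylase gene, rose by 0.36 ± 0.05. KAT2B, which encodes the acetyltransferase PCAF, had a log2 change of -0.85 ± 0.08 and RBBP7, a histone-binding subunit of the SIN3 complex, one of -0.28 ± 0.04. Scaled to library totals, 2 of these 7 rose, 4 fell and 1 did not pass.

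The kinase route from MAP3K2 through MAP2K5 and MAPK7 to MEF2 factors drives KLF2 and KLF4 in endothelium. Its 6 tested genes were divided, 2 higher, 2 lower and 2 short of the threshold, and the median log2 change was 0.05, which became -0.09 when libraries were scaled to their totals. The shares over all tested genes were 31.3% higher and 29.2% lower. MAP3K2 rose by 0.98 ± 0.05 and PDCD10, a cerebral cavernous malformation gene that holds this route in check, by 0.37 ± 0.06. HDAC9, which encodes a deacetylase that represses MEF2 factors, fell from 760.1 ± 66.1 to 292 ± 39.6 normalized counts (log2 change -1.38 ± 0.11), and MAP2K5 had a log2 change of -0.21 ± 0.09. MAPK7, named here after its values were seen, was at -0.01 ± 0.07 and did not pass. MEF2C was near 2 normalized counts in both groups and was not tested.

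Of 8 tested genes for enzymes, or their subunits, that mark KLF proteins for degradation, 5 rose and 1 fell. Their median log2 change was 0.29. When libraries were scaled to their totals, 4 rose and 1 fell. No gene for an enzyme that reverses this mark is among those analysed here. Of all tested genes 31.3% were called higher and 29.2% lower. FBXO32, which encodes a ubiquitin ligase subunit that acts on KLF4 among other proteins, rose from 520 ± 56.3 to 2373 ± 27.2 normalized counts, a log2 change of 2.19 ± 0.08 (limma adjusted p = 4.75e-29). SMURF2, SIAH1 and SMURF1, all ubiquitin ligase genes, rose by 0.38 ± 0.05, 0.35 ± 0.09 and 0.31 ± 0.05. Protein levels were not measured.

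The 10 tested glucocorticoid-responsive genes, KLF9 among them, were divided, with 4 higher and 6 lower and a median log2 change of -0.28, against 31.3% higher and 29.2% lower among all tested genes. CEBPD, which encodes a C/EBP factor of the acute phase, fell from 1539.7 ± 44.9 to 374 ± 34.0 normalized counts. SGK1, ERRFI1 and FKBP5, a kinase gene, an inhibitor of EGF receptor signalling and an immunophilin of the glucocorticoid receptor complex, had log2 changes of -0.64 ± 0.06, -0.58 ± 0.07 and -0.44 ± 0.05.

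Of 17 tested genes that have been described as targets of 1 or more KLF proteins, 7 rose and 5 fell, the other 5 missing the threshold, and the median log2 change was -0.19. The 12 called are 70.6% of the list, near the 60.6% of all tested genes. SMAD7, which encodes the inhibitory SMAD and is known to be repressed by KLF10 and KLF11, rose from 400.5 ± 23.5 to 4005 ± 261 normalized counts (3.32 ± 0.08). COL1A1 and TGFB1, both described as activated by KLF6, rose by 2.00 ± 0.04 and 2.01 ± 0.05. VCAM1, which KLF2 represses in endothelium, fell by 3.40 ± 0.08 on the log2 scale. These values stand beside those of the KLF genes, and no link between them was tested.

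**Figure D4:**
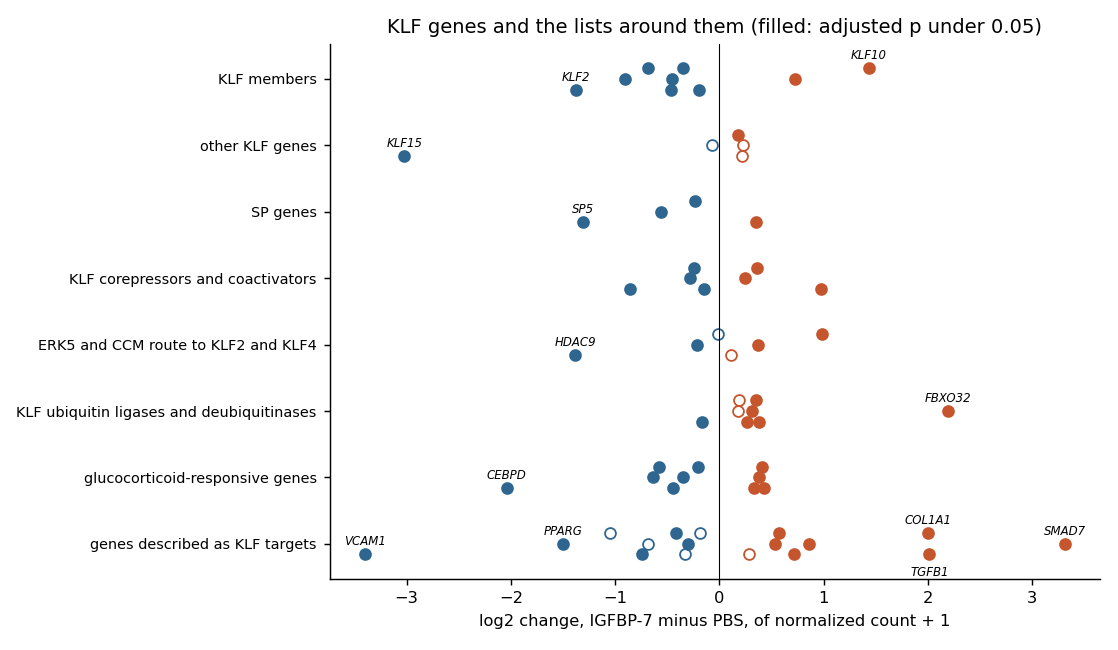
Log2 change of each tested gene in 8 lists, 1 point per gene; filled points passed (limma adjusted p under 0.05), open points did not, and genes beyond 1.2 in size are named. The KLF genes spread from -1.37 to 1.43, and FBXO32, SMAD7, KLF15 and VCAM1 lie farther out in their lists.

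Markers of other cell types were followed because KLF2 and KLF4 are prominent in endothelium and macrophages. Beside the counts of each list, 31.3% of all tested genes were called higher and 29.2% lower. Of 11 endothelial markers analysed here 8 were tested, 3 higher and 2 lower, and their summed level ran between 5171 and 5504 in the PBS libraries and between 4721 and 4858 in the IGFBP-7 libraries. TIE1 and EGFL7 made up most of this sum and fell, by 0.29 and 0.33 on the log2 scale, while PECAM1, TEK and STAB1 rose by 0.87, 0.71 and 1.11 and the list's median change was 0.02. CDH5 had a mean of 9.72 in PBS and was at 0 with IGFBP-7, and LYVE1 was at 0 in PBS. Of 9 macrophage and leukocyte markers 5 were tested, 4 lower and 1 higher, with a sum of 3658 to 3785 in PBS and 1852 to 2123 with IGFBP-7. CD68, the most abundant of them, fell from 2863 to 1466, and CSF1R rose from 56.5 to 293 (log2 change 2.35). PTPRC, the pan-leukocyte gene, had means of 5.59 and 4.67, and CD3E was at 0 in PBS. Of 9 hepatocyte markers 2 were tested, 1 of which rose, and ALB had means of 0.712 and 1.81. The hepatocyte list summed to between 2643 and 2694 in PBS libraries and between 3084 and 3372 in treated ones. CPS1, the gene that rose, made up most of this sum, at means of 2385 and 2955. Epithelial markers, 7 of 11 tested, had 3 higher and 1 lower, with CDH1 at 0 in PBS and sums between 27812 and 28656 in PBS libraries against 37952 to 44089 in treated ones. KRT8 and KRT18, which both rose, made up most of these sums. Their means were 14472 and 12162 in PBS and 22821 and 16472 with IGFBP-7. These markers, called in both directions within the endothelial and leukocyte lists, are named here after their values were seen, and their part in the KLF2 and KLF4 results was not tested.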

How the data were processed

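RNA sequencing of 6 LX-2 libraries, 3 with PBS and 3 with IGFBP-7, was analysed from the 1 deposited table, with groups taken from the treatment label. Per the file headers its values are normalized counts, a signal the authors scaled between libraries and left on the linear scale. Per the submitters' processing notes the tools included DESeq2, featureCounts, Subread and STAR, whose roles and versions those notes leave out. Build, annotation and use of strand: not given in the sources used here. Poly(A) RNA was made into libraries with a directional kit, per the labels' protocols.

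Within a library each value was a whole multiple of 1 step (100% within 0.01 of a step), so the counts could be recovered. Of the nonzero counts 99.6% were even. In the 3772 genes with a mean under 10 recovered counts 78.0% to 82.3% were multiples of 4, against 49.8% to 52.0% in the 4460 genes with a mean of 2000 or more. An RNA fragment may therefore have added up to 4 counts, so no counting interval is given, and the level that a count of 0 allows was set at 3 fragments of 4 counts, 5.08 to 6.41 normalized counts. Libraries of a group differed by more than sampling noise (chi-square per degree of freedom 2.63 to 3.61 on counts divided by 4).

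The fit was limma-trend (limma 3.58.1, R 4.3.3) on log2(normalized count + 1) over the 11872 genes whose mean reached 10, without covariates, two-sided, with Benjamini-Hochberg adjustment over all of them and a threshold of 0.05. The scripts were tested on simulated counts. Alternatives were pseudocounts of 0.5 and 10, no filter or one at a mean of 100, scaling to the library total, quantile normalization, edgeR 4.0.16 and DESeq2 1.42.0 on recovered counts, a replicate block and leaving out each library. One more, edgeR on recovered counts divided by 4, was chosen after seeing the data. Members, lists, motifs, ratios and the named cell type markers were chosen with earlier results of these data known. All members are named; from each list at most 4 called genes with the largest change are named, and any KLF or SP gene may be. Exon lengths are from GENCODE 29 by Ensembl identifier, found for 16482 of 16569 genes. Some results are not reported here.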

Additional observations from a re-analysis of the deposited data

How the results depend on the processing

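Of 16 alternatives, the count of 9 called KLF genes was 9 in all but 3, with 2 higher throughout and 7 or 6 lower. Leaving out 1 library gave 8 to 9 called KLF genes, and 6673 to 6841 called genes in all. Each of the 9 genes kept its direction in all 16, a direction that the replicate block and the filter settings could not alter. Of the 9, 8 kept their call. The exception was KLF3, whose log2 change ran from -0.26 to -0.13 when a library was left out. It was -0.13 without PBS replicate 3, -0.15 without IGFBP-7 replicate 1 and -0.18 without IGFBP-7 replicate 3, each with fewer samples in the fit. Scaling to the library total moved the number of genes higher with IGFBP-7 from 3721 to 2435. Normalized totals were 21287527 to 21682060 in PBS and 23373767 to 24123228 with IGFBP-7, so dividing by them lowers the log2 changes. Why the totals differ was not tested. Under this scaling KLF2 was at -1.51, KLF10 at 1.29 and KLF7 at 0.58. On recovered counts edgeR called 7102 genes and DESeq2 7108, and edgeR on counts divided by 4 called 7208, with the 9 KLF genes among them each time. The replicate numbers did not pair the libraries: deviations from the group mean correlated at -0.05, 0.01 and -0.05 for the same numbers. The replicate block gave 7177 called genes, the 9 KLF genes included, with no KLF call altered. Its log2 changes are the same by construction, since each block holds 1 library of each group. Depth limits what can be said of KLF1, KLF8, KLF14, KLF15 and KLF17, which lie near the level that a count of 0 allows in at least 1 library.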
